A study of Mus musculus with 3 samples.

Results

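Glycolysis genes were followed across the blood cells of young, aged and aged-GA mice. The set holds 10 genes of the 32285 in the count tables: the glucose transporter Slc2a1, the hexokinase Hk2, and Gpi1, Aldoa, Tpi1, Gapdh, Pgk1, Eno1, Pkm and Ldha, enzymes on the way from glucose 6-phosphate to lactate. The phosphofructokinase and phosphoglycerate mutase steps of that way are not in the set. Their rows were found by gene symbol. Peripheral blood mononuclear cells (PBMCs) of female C57BL/6 mice had been profiled by droplet-based single-cell RNA sequencing in 3 libraries, 1 per group. The young mice were 8 weeks old and had no treatment. The aged mice were 16 months old and had no treatment by their label, while the methods give the controls PBS. The aged-GA mice were 16 months old and had received glycyrrhizic acid (GA), the triterpenoid of liquorice root, for 1 month. The study names several mice in each group, and how their cells were combined into the library is not stated. With 1 library per group a difference between groups cannot be told apart from a difference between libraries.

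Glycolysis splits glucose into pyruvate in the cytosol, and Ldha turns pyruvate into lactate and restores the NAD that Gapdh consumes. Neutrophils hold few mitochondria and are known to live largely on this pathway, lymphocytes raise it when they are activated, and mature erythrocytes, which lack mitochondria, depend on enzyme protein made before they lost most of their RNA. Several steps exist as isoenzymes from separate genes, such as Hk1, Hk2 and Hk3 for the phosphorylation of glucose, and many of the genes carry sites for the hypoxia factor HIF1 in their promoters.

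The promoters of 3 members, the 250 bases before the RefSeq start, are given to show which motif letters they hold. The members shown are Hk2, which had the widest difference between cell types, Pgk1, and Gpi1, which had no match. Capitals mark the letters ACGTG or GCGTG, the core that HIF1 binds, on either strand, so that CACGT is ACGTG on the other strand. The Hk2 window is chr6:82774455-82774704 and the Gpi1 window chr7:34230337-34230586, both on the minus strand, and the Pgk1 window is chrX:106186850-106187099 on the plus strand, all in GRCm38.p6 and each read 5′ to 3′ along the gene.
Hk2: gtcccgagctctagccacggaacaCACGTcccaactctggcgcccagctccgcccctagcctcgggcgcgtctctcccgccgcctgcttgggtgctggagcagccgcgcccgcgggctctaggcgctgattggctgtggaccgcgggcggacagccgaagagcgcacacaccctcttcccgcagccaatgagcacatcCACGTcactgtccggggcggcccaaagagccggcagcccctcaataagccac
Pgk1: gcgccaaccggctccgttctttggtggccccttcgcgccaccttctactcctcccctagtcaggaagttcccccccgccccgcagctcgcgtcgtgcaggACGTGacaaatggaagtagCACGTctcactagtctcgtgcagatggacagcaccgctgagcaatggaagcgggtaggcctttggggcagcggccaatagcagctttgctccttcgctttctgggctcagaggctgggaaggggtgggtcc
Gpi1: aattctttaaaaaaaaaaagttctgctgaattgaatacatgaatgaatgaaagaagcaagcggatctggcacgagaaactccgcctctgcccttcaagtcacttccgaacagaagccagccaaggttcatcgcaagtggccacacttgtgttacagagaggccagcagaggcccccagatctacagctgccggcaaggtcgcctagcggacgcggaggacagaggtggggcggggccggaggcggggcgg
The core stood 226 and 52 bases before the start of Hk2 and 131 and 150 bases before that of Pgk1. The RefSeq promoters of Aldoa lie in the locus of another row of that name and were left out. RefSeq lists 13 promoters for the other 9 members, and 10 of them (76.9%) held the core against 38.6% of all 32851 promoters of the same length. The 13 windows held 54.4% to 71.2% G and C, and the promoters set against them were not matched for this. Among those with the core are the Eno1 window from chr4:150236458 and the Ldha window from chr7:46845554. The bases after their start were not found in a transcript of the gene. By gene, 7 of 9 members had it in at least 1 promoter, and no share over all genes was computed to set beside this. Eno1, Pkm and Ldha have more than 1 promoter listed. The Eno1 windows chr4:150236947-150237196 and chr4:150236974-150237223 overlap and hold the same matches, so the promoters counted are not independent. The GC box, GGGCGG on either strand, was in 69.2% of member promoters and in 32.74% of all promoters, and the E-box CACGTG in 7.69% and 6.02%; an E-box holds the letters ACGTG, so these motifs overlap. A match describes letters and not a bound site.

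Cells were named by marker genes and not by clusters. After the cell filters of the study 8851 young, 10238 aged and 12648 aged-GA cells remained. The numbers of cells the study gives are lower for young and aged-GA and higher for aged mice. The T gate held 5224, 1874 and 2894 cells of the young, aged and aged-GA library, the B gate 2234, 3889 and 5134, the NK gate 307, 235 and 232, the monocyte gate 50, 621 and 194, the neutrophil gate 12, 706 and 406, and the erythroid gate 341, 203 and 902. T, B and NK cells are called lymphoid here and monocytes and neutrophils myeloid. Haemoglobin made up 93.1% of the UMIs (unique molecular identifiers, 1 for each captured transcript) of erythroid-gated cells in each library, and their median number of genes was 228, 217 and 229. Other gates and cells in no gate held 13.8%, 42.2% and 34.8% of the UMIs. The young neutrophil value rests on 12 cells and stayed out of the tests. The own markers of each leukocyte class all had UMIs in it, 4472, 4491 and 4310 CPM over the T markers in T cells and 2354, 3375 and 3100 CPM over the monocyte markers in monocytes. Cells were chosen by these same markers, so the sums are high by construction and do not check the names of the classes. UMIs that leukocytes of another class make also differed between libraries: S100a8 and S100a9, the calprotectin genes of neutrophils, summed to 4.98, 167 and 113 UMIs per 1000000 UMIs (counts per 1000000, CPM) in T cells, and haemoglobin to 954, 6140 and 4501 CPM. Of the barcodes, 52 were shared by the young and aged, 50 by the young and aged-GA and 62 by the aged and aged-GA library.

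Aldoa, the aldolase that cleaves fructose 1,6-bisphosphate, needs a remark, since 2 rows bear its name. The row with the plain symbol is ENSMUSG00000114515 (chr7:126800790-126809108, minus strand), the upstream locus, and among the 6 gated classes it had 1 UMI, 0.985 CPM, in young NK cells and 0 UMIs in each other class and library. The other row, ENSMUSG00000030695 (chr7:126795234-126800751, minus strand), lies next to it and carries the counts, from 153 CPM in young T cells to 630 CPM in young neutrophils among the leukocyte classes, and 0.995, 10.3 and 6.36 CPM in erythroid cells. The plain row is the member by rule; the second row is given beside the members and is left out of their sums and counts.

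Glycolysis genes took a larger share of the UMIs of myeloid than of lymphoid cells in each library. The levels below are shares of UMIs and not counts per cell, and depth differed between classes. Aged neutrophils had 5534 member UMIs in 706 cells and aged monocytes 10033 in 621 cells, so per cell neutrophils were lower there. Median depth was 2189.5 UMIs in aged neutrophils, 5670 in aged monocytes and 4412.5 in aged T cells. Summed over the members, the level of T cells was 1371 CPM in the young library, 1480 CPM in the aged one and 1539 CPM after GA. B cells were lower, at 1094, 1030 and 1108 CPM, and NK cells lay near T cells, at 1519, 1470 and 1425 CPM. Monocytes reached 2546, 2533 and 2457 CPM and neutrophils 3385, 2876 and 3161 CPM. The order neutrophil, monocyte, lymphoid cell, erythroid cell was the same in the 3 libraries, and the exact 95% Poisson intervals of its neighbours did not overlap. NK and T cells were not ordered the same way throughout: the intervals overlapped in the aged library (1388 to 1556 and 1455 to 1506 CPM), while NK cells were higher in the young and T cells in the aged-GA library. These intervals cover counting error only. After each cell was thinned to 500 UMIs, a UMI of any member was found in 48.9%, 51.6% and 52.4% of T cells, in 72.0%, 70.7% and 70.1% of monocytes and in 72.0% and 72.7% of aged and aged-GA neutrophils.

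**Figure D1:**
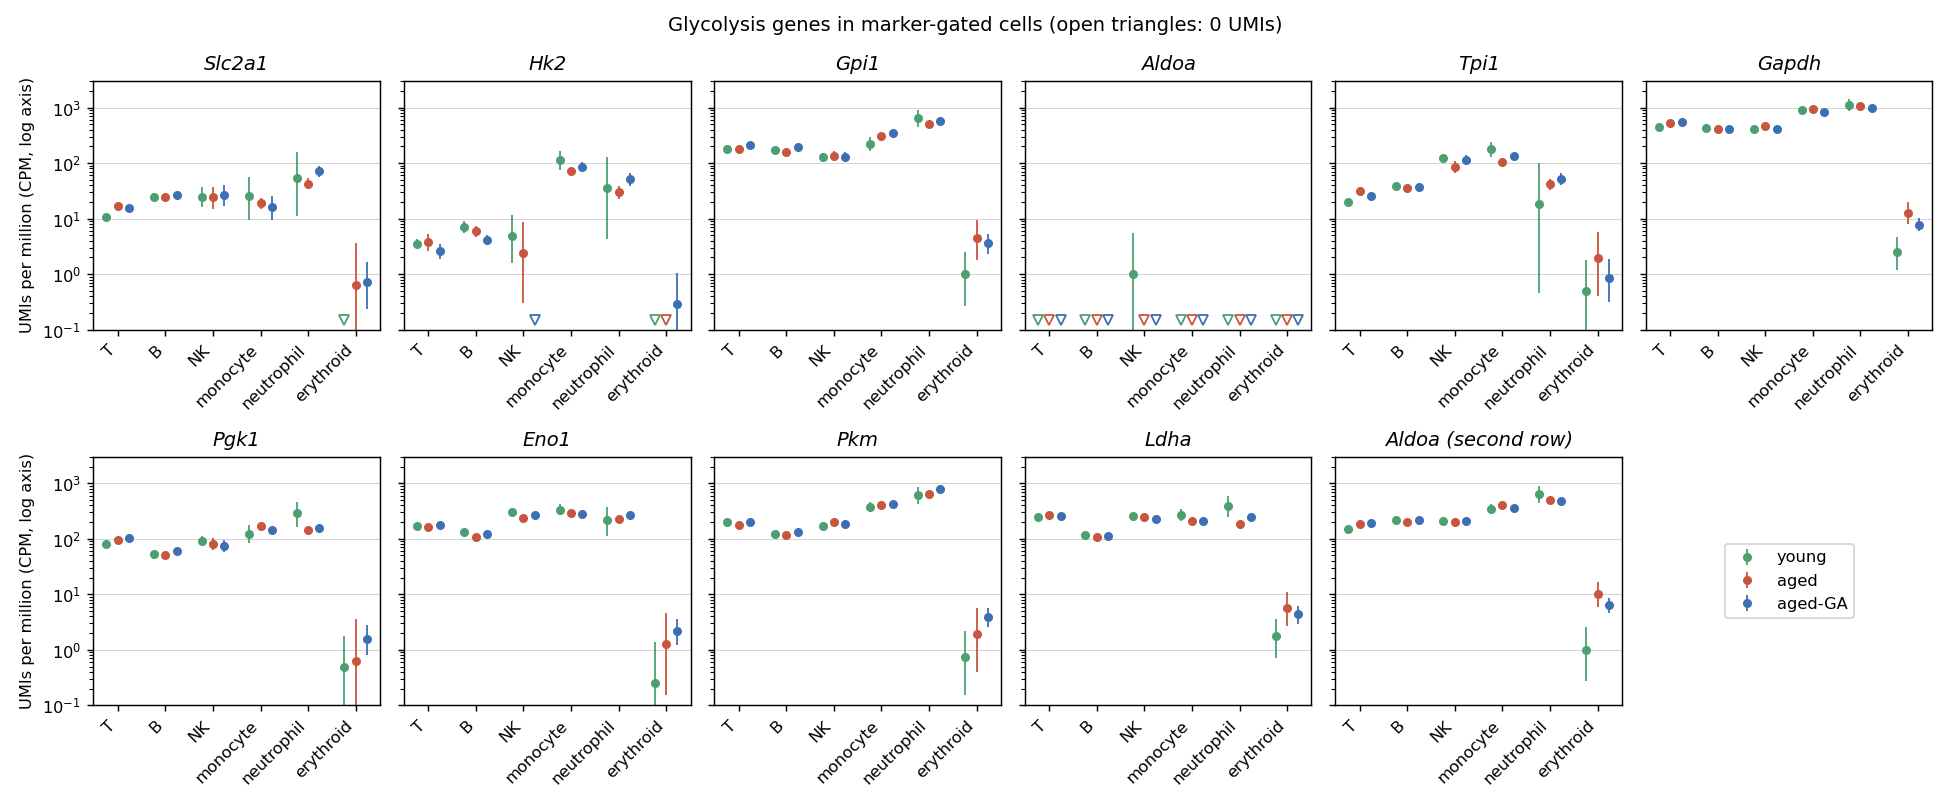
Levels of the 10 members and of the second Aldoa row in the 6 gated classes, in CPM on a log axis, with exact 95% Poisson intervals as bars; colours mark the 3 libraries and open triangles 0 UMIs. Hk2 stood between 29.6 and 116 CPM in monocytes and neutrophils and at or under 7.16 CPM in T, B and NK cells, while Ldha differed less between classes.

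The cell types were compared across the libraries on UMI sums per class and library, with edgeR's quasi-likelihood test, the library as a term and Benjamini-Hochberg adjustment over 11829 genes. Of the 10 members 9 passed the filter on low counts, all but the plain Aldoa row. The mean of monocytes and neutrophils was set against the mean of T, B and NK cells on the log2 scale. All 9 were higher by this contrast, where 27.9% of all genes tested were higher and 36% lower. It does not show that each myeloid class was above each lymphoid class, and for some members this was not so in CPM. The median log2 difference of the 9 was 1.32, against -0.23 for all genes tested.

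Hk2, the inducible hexokinase that binds to mitochondria, had the widest difference. Its level in T cells was 3.46, 3.78 and 2.57 CPM in the young, aged and aged-GA library. In monocytes it was 116, 70.9 and 84.6 CPM, and in neutrophils 36.0, 29.6 and 51.6 CPM. The highest lymphoid value was 7.16 CPM, in young B cells, under each myeloid value. The young neutrophil value came from 2 UMIs. NK cells of the aged-GA library had 0 UMIs, where 3 UMIs would give 3.68 CPM. The log2 difference was 4.44 ± 0.20 (SE), with an edgeR adjusted p of 1.24e-17. Unthinned, 40.0%, 31.1% and 36.6% of monocytes and 1.40%, 1.65% and 1.24% of T cells had a Hk2 UMI, at median depths of 4199.5, 5670 and 4790.5 UMIs in monocytes and of 5003.5, 4412.5 and 5546 UMIs in T cells. Thinned to 500 UMIs these shares were 10%, 3.70% and 4.12% in monocytes and 0.13%, 0.05% and 0.14% in T cells.

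Pkm, the pyruvate kinase that forms pyruvate and ATP, followed. It stood at 201, 181 and 198 CPM in T cells, 372, 410 and 415 CPM in monocytes and 612, 650 and 790 CPM in neutrophils, without overlap between lymphoid and myeloid classes. The log2 difference was 2.01 ± 0.17 (SE), with an edgeR adjusted p of 1.56e-11. Gpi1, which converts glucose 6-phosphate to fructose 6-phosphate, was at 182, 180 and 215 CPM in T cells, 223, 301 and 345 CPM in monocytes and 648, 512 and 561 CPM in neutrophils. Its log2 difference was 1.57 ± 0.16 (SE; edgeR adjusted p = 9.74e-10).

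The enzymes of the middle of the pathway differed by 0.97 to 1.36 on the log2 scale. The level of Gapdh was 449, 537 and 544 CPM in T cells and 903, 959 and 831 CPM in monocytes. Between the myeloid and lymphoid means Gapdh, which makes NADH and 1,3-bisphosphoglycerate, had a log2 difference of 1.36 ± 0.17 (SE). Pgk1, which takes the first ATP from that product, had 1.32 ± 0.13, Tpi1, which interconverts the triose phosphates, 1.08 ± 0.13, and Eno1, which makes phosphoenolpyruvate, 0.97 ± 0.15. Among lymphoid cells NK cells had the highest Eno1 and Tpi1, 303, 237 and 263 CPM and 124, 84.3 and 114 CPM, against 172, 166 and 179 CPM and 20.2, 31.3 and 25.9 CPM in T cells. The edgeR adjusted p-values of these 4 members ran from 1.19e-09 for Pgk1 to 1.70e-06 for Eno1.

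The smallest log2 differences were those of the transporter and of the last enzyme. The glucose transporter Slc2a1 was at 10.9, 16.8 and 15.3 CPM in T cells and 25.7, 18.9 and 16.2 CPM in monocytes. In neutrophils it was at 54.0, 42.6 and 70.5 CPM, the first from 3 UMIs. Monocyte values overlapped those of the lymphoid classes, and the aged and aged-GA neutrophil values did not. The log2 difference of Slc2a1 over both myeloid classes was 0.96 ± 0.16 (SE; edgeR adjusted p = 5.87e-06). Ldha was at 251, 271 and 256 CPM in T cells, 116, 109 and 110 CPM in B cells, 270, 206 and 211 CPM in monocytes and 396, 186 and 247 CPM in neutrophils. In the aged and aged-GA library both myeloid classes stood below T cells in CPM, and in the young library both stood above them. The edgeR log2 difference, in which T cells are averaged with B and NK cells, was 0.53 ± 0.14 (SE; adjusted p = 0.00128). It did not pass without the aged library (adjusted p = 0.0947), without the aged-GA library (0.171) or with library sizes in place of TMM factors (0.272). The second Aldoa row differed by 1.40 ± 0.17.

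**Figure D2:**
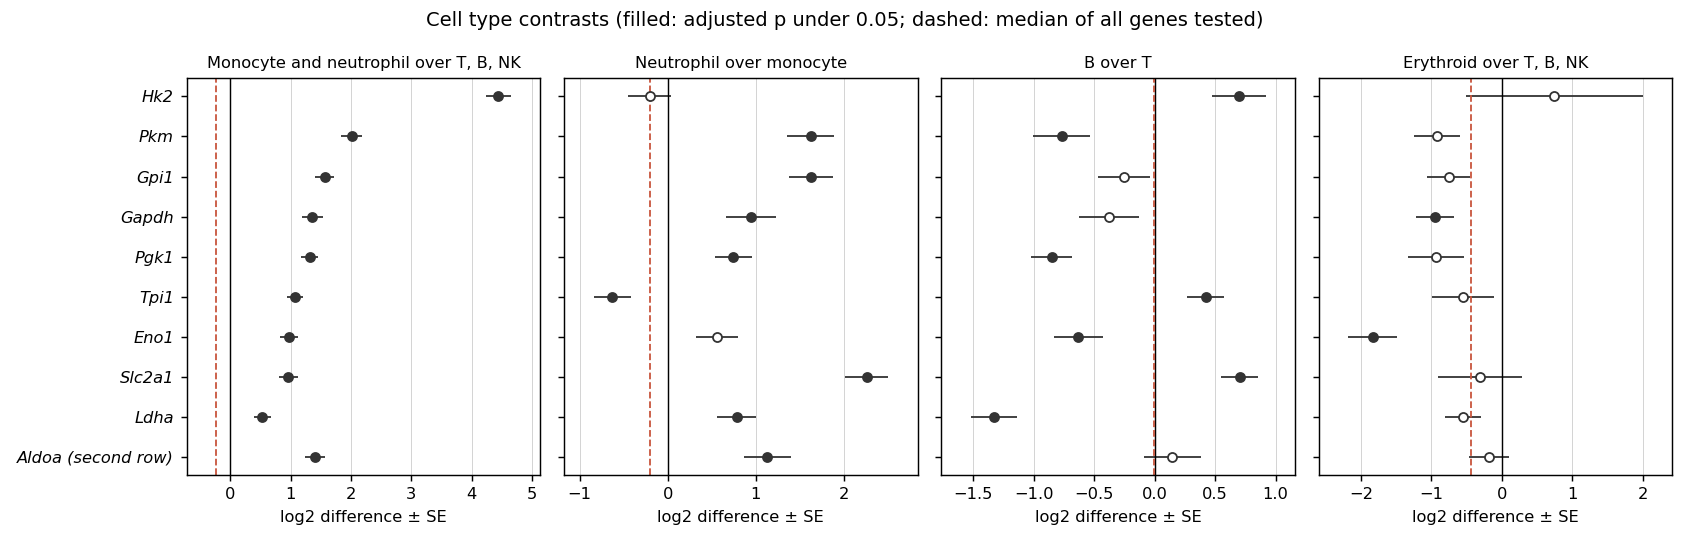
Log2 differences of the 9 members tested and of the second Aldoa row in the 4 cell type contrasts, with standard errors; filled points have an edgeR adjusted p under 0.05 and the dashed line is the median of all genes tested. All points of the myeloid contrast lie to the right of 0, from 0.53 for Ldha to 4.44 for Hk2, and members point both ways in B over T.

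Neutrophils and monocytes differed in which members they carried. By edgeR 6 of 9 members were higher in neutrophils and 1 was lower, where 22.7% of all genes tested were higher and 27.8% lower. The widest differences were those of Slc2a1, 2.26 ± 0.25 (SE), Gpi1, 1.62 ± 0.25, and Pkm, 1.62 ± 0.27, on the log2 scale, with adjusted p-values of 1.01e-08, 3.68e-06 and 1.09e-05. Gapdh, Ldha and Pgk1 were higher by 0.95, 0.78 and 0.74. Tpi1 was lower, with a log2 difference of -0.63 ± 0.21 (edgeR adjusted p = 0.0164). It stood at 180, 104 and 131 CPM in monocytes and 18.0, 41.6 and 52.4 CPM in neutrophils. The 18.0 CPM came from 1 UMI of young neutrophils, which were not in the test. Eno1 (0.56, adjusted p = 0.0521) and Hk2 (-0.20, adjusted p = 0.511) did not pass. The split changed with the scaling. Calprotectin alone took 279369, 220576 and 175172 CPM of the neutrophils, and with haemoglobin-free library sizes in place of TMM factors the median of all genes tested moved from -0.20 to -0.97, with 3 members higher (Slc2a1, Gpi1 and Pkm) and 2 lower (Tpi1 and Hk2). Of all genes tested 11.9% were higher and 47.2% lower with those sizes. Without the aged or the aged-GA library 1 neutrophil sum is left, and fewer members and a smaller share of all genes passed. In CPM Gapdh stood at 1046 and 967 CPM in aged and aged-GA neutrophils against 959 and 831 CPM in monocytes.

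B cells and T cells split the members. By edgeR 3 of 9 were higher in B cells (20.6% of all genes tested were) and 4 lower (21.3%). Slc2a1 (0.70 ± 0.15, SE), Hk2 (0.70 ± 0.22) and Tpi1 (0.42 ± 0.15) were higher on the log2 scale. Ldha (-1.33 ± 0.19), Pgk1 (-0.85 ± 0.17), Pkm (-0.77 ± 0.24) and Eno1 (-0.63 ± 0.20) were lower. Slc2a1 was at 24.2, 24.0 and 26.3 CPM in B cells, above each T cell value, and Ldha was below each T cell value. Without the aged or the aged-GA library 2 members were higher and 2 lower, with 2 sums left in each class. Of all genes tested 15.2% were higher and 15.4% lower without the aged library, and 12.8% and 13.3% without the aged-GA library.

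Erythroid-gated cells held very little of any member. The summed level was 7.22 CPM (29 UMIs in 341 cells) in the young library, 29.6 CPM (46 UMIs in 203 cells) in the aged library and 25.3 CPM (175 UMIs in 902 cells) after GA. Over UMIs other than haemoglobin this was 105, 429 and 367 CPM, under each leukocyte value on the same scale. Hk2 had 0 UMIs in the young and aged library, where 3 UMIs would give 0.746 and 1.93 CPM, and 2 UMIs in aged-GA. Thinned to 500 UMIs, 1.47%, 1.97% and 2% of these cells had a UMI of any member. Calprotectin, a neutrophil product, stood at 2.24, 145 and 105 CPM in the same cells, lowest in the young library as the members were. The part of free RNA in the erythroid values was not tested. Against T, B and NK cells edgeR called 0 members higher (8.92% of all genes tested), as at an unadjusted p under 0.05 and by DESeq2, and 2 lower (5.93%), Eno1 with a log2 difference of -1.83 ± 0.35 (SE) and Gapdh with -0.95 ± 0.27. Gapdh did not pass without any 1 of the libraries (adjusted p from 0.0556 to 0.125), and Pkm did without the aged-GA library (0.0340). In the main fit the median log2 difference of the members tested was -0.75, against -0.44 for all genes tested. With haemoglobin-free library sizes 8 members were lower, as were 50.2% of all genes tested, and the median of all genes tested was -1.71.

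The isoenzymes set beside the members differed between classes. Of the UMIs of Hk1, Hk2 and Hk3, Hk1, the constitutive hexokinase, made up 85.8%, 91.4% and 91.7% in T cells and 63.7%, 73.4% and 80.5% in B cells. Hk2 made up 79.4%, 50.8% and 65.3% in monocytes. Hk3 made up 58.8%, 73.7% and 62.3% in neutrophils, the first of 17 UMIs. The exact 95% binomial interval of the Hk2 share was 46.6 to 55.1% in aged and 56.9 to 73.0% in aged-GA monocytes, so these did not overlap. Within the monocyte subsets the intervals overlapped. The share was 53.8% (47.4 to 60.1%) and 65.8% (48.6 to 80.4%) in classical and 51.9% (44.9 to 58.8%) and 65.1% (54.1 to 75.1%) in nonclassical cells. The aged-GA values came from 38 and 86 hexokinase UMIs, against 144 in the whole gate. In both subsets the share was higher in aged-GA, as in all monocytes. A share also follows the other 2 genes. From aged to aged-GA, Hk1 stood at 35.5 and 17.3 CPM in classical cells (58 and 5 UMIs). In nonclassical cells it stood at 39.4 and 20.5 CPM (65 and 14 UMIs). Hk3 stood at 35.5 and 27.7 CPM in classical and at 21.8 and 23.4 CPM in nonclassical cells. Nonclassical cells were 361 of 621 aged and 142 of 194 aged-GA monocytes. Slc2a1 made up 92.6% and 90% of the UMIs of Slc2a1 and Slc2a3 in aged and aged-GA monocytes and 12.2% and 17.2% in neutrophils, where Slc2a3, a transporter with high affinity for glucose, reached 306 and 339 CPM. Eno3, the enolase best known from muscle, was at 364, 181 and 274 CPM in monocytes and at or under 7.52 CPM in each other class. Ldha made up at least 91.2% of the UMIs of Ldha and Ldhb in each leukocyte class, and Pklr, the pyruvate kinase of liver and erythrocytes, had 0 UMIs beside Pkm in all 6 classes.

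**Figure D3:**
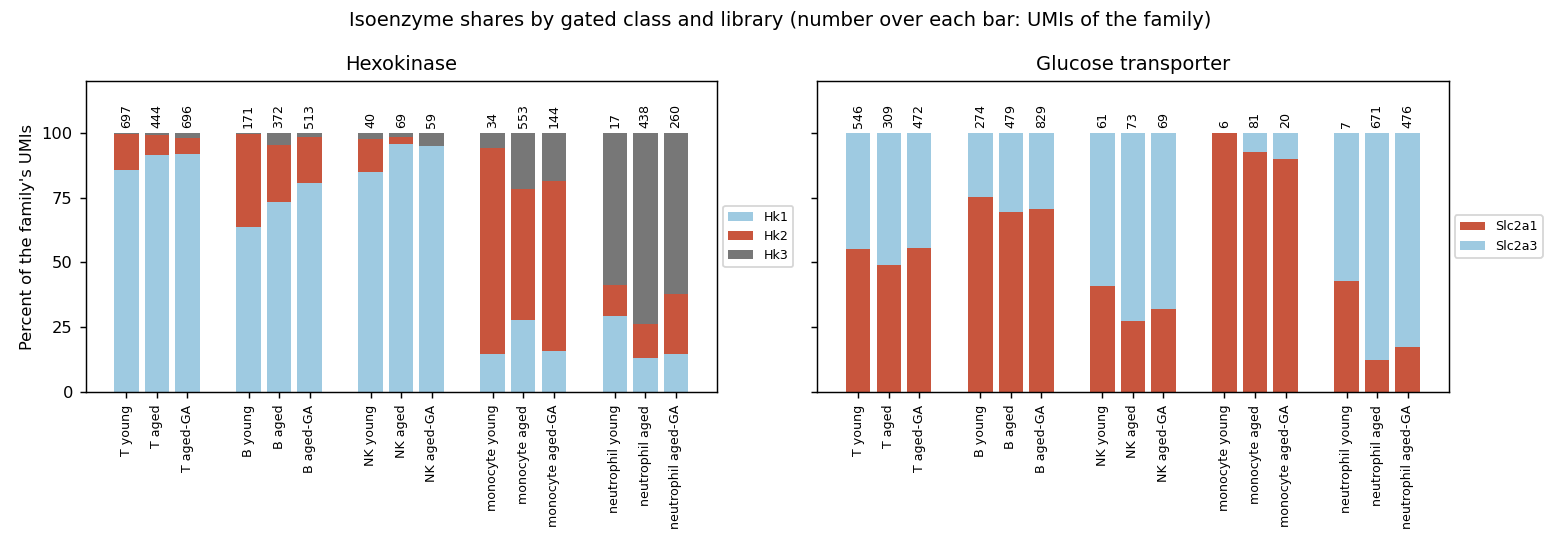
Percent of the UMIs of Hk1, Hk2 and Hk3, and of Slc2a1 and Slc2a3, in the 5 leukocyte classes by library; the number over each bar counts the family's UMIs. Hk1 leads in T, B and NK cells, Hk2 in monocytes and Hk3 in neutrophils, and monocytes and neutrophils are opposite in Slc2a1 and Slc2a3.

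Other genes of the pathway, 46 in 5 lists, were taken for context, and 41 were tested. In monocytes and neutrophils over T, B and NK cells 23 were higher and 7 lower, where 27.9% of all genes tested were higher and 36% lower. In the pentose phosphate list 4 of 5 genes were higher, among them Pgd, 3.59 ± 0.14 (SE), and Taldo1, 3.04 ± 0.23, on the log2 scale, while Pgls was lower. Of the isoenzymes 6 of 11 were higher and 0 lower, among them Hk3, 6.23 ± 0.22, and Pgam1, the phosphoglycerate mutase between Pgk1 and Eno1, 1.92 ± 0.14. Of the lactate and pyruvate transporters 4 of 5 were higher, led by the lactate exporter Slc16a3, 7.41 ± 0.23, which stood at 436 and 443 CPM in aged and aged-GA neutrophils and at or under 2.11 CPM in T cells. The fifth, the lactate transporter Slc16a1, was lower (-1.67 ± 0.38). Of the regulators 2 of 8 were higher, Pfkfb3 and Pfkfb4, which make the activator of phosphofructokinase, and 2 lower, Pdk1 and Txnip, shares no higher than those of all genes. Of the hypoxia and Myc list 7 of 12 were higher and 3 lower, Myc (-2.69 ± 0.32) and Mif (-1.27 ± 0.17) among the latter. Erythroid cells differed from the members in Bpgm, which makes 2,3-bisphosphoglycerate for oxygen release from haemoglobin: it was at 3121, 1273 and 1952 CPM against at most 31.8 CPM in any leukocyte class. That gene was 11.70 ± 0.40 higher on the log2 scale than in T, B and NK cells.

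Between libraries most of the members counted moved little within a class. A member was counted where it had at least 100 UMIs in both libraries together and 50 CPM in one of them. It was said to pass the fold at 1.5-fold on the log2(CPM + 1) scale. Slc2a1, Hk2, Tpi1 and the plain Aldoa row were under these minima in T and B cells, so the counts there leave them out. In NK cells all of these but Tpi1 were under them. Without the minima Tpi1 was past the fold, upward, in aged over young T cells. In T cells 0 of 6 members counted passed it in aged over young, where 24.1% of the genes counted were past it upward and 2.95% downward. The log2 ratios of these 6 members ran from -0.15 for Pkm to 0.26 for Gapdh, with a median of 0.049 against 0.31 for all genes counted. In B cells 0 of 6 passed (17.6% of genes upward, 4.01% downward), all 6 were below 0, and their median was -0.067 against 0.21 for all genes. In NK cells 0 of 7 passed (9.1% and 5.28%), from -0.55 for Tpi1 to 0.22 for Pkm. Memory or effector T cells, with UMIs of at least 2 of Ccl5, Nkg7, Gzmk, Cxcr3 and Id2, took 1407 of 5224 young and 961 of 1874 aged T cells. In them 0 of 6 members passed the fold (25.3% of genes upward, 2.88% downward), and Gapdh had the highest log2 ratio, 0.22 (95% interval 0.15 to 0.28). Their summed level was 1400 and 1519 CPM in the young and aged library.

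In monocytes 2 of 8 members counted were lower past the fold in aged over young (17.1% of genes were) and 0 higher (14.2%), a share not far from that of all genes. With at least 3 own markers and 0 of another class per cell 1 member was past it, and at 2-fold 0 were. Tpi1 stood at 180 and 104 CPM, 42 and 412 UMIs, a log2 ratio of -0.78 (95% interval -1.25 to -0.29). Hk2 stood at 116 and 70.9 CPM, 27 and 281 UMIs, a log2 ratio of -0.70 (-1.28 to -0.077). The young gate held 50 cells, of which 46 were nonclassical and 1 classical, while the aged gate held 361 nonclassical and 180 classical cells. Within nonclassical monocytes Hk2 stood at 125 and 66.0 CPM (log2 ratio -0.91, interval -1.54 to -0.24) and Tpi1 at 187 and 131 CPM (-0.51, -1.01 to 0.017). Of the 8 members counted in this subset Hk2 was lower past the fold (6.83% of genes were) and 0 were higher (13.8%). The summed member level of monocytes differed by a log2 ratio of -0.0077 (-0.13 to 0.11).

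In aged-GA over aged no member passed the fold in T cells (0 of 6), B cells (0 of 6), NK cells (0 of 7) or monocytes (0 of 8). Of all genes counted 0.45% were past it upward and 1.05% downward in T cells, 0.534% and 0.783% in B cells, 2.46% and 1.61% in NK cells and 4.92% and 3.47% in monocytes. Gpi1 had the highest ratio in T and B cells, 180 to 215 CPM (log2 ratio 0.26) and 160 to 197 CPM (0.30). In B cells all 6 members counted lay above 0, with a median of 0.16 against -0.036 for all genes. In memory or effector T cells 0 of 6 members passed the fold (0.562% of genes upward, 1.39% downward). The monocyte subsets gave 0 of 8 in classical (4.34% and 7.35%) and 0 of 8 in nonclassical cells (3.1% and 2.98%), with Hk2 at 82.5 and 86.5 CPM in classical and at 66.0 and 81.9 CPM in nonclassical cells. In neutrophils 2 of 9 members were higher past the fold (4.8% of genes were) and 0 lower (1.11%). With at least 3 own markers and 0 of another class per cell 0 were past it, without the limit on mitochondrial UMIs 1 was, and at 2-fold 0 were. Slc2a1 stood at 42.6 and 70.5 CPM, 82 UMIs in each library, with a log2 ratio of 0.71 (interval 0.27 to 1.19). Hk2 stood at 29.6 and 51.6 CPM, 57 and 60 UMIs, with a log2 ratio of 0.78 (0.25 to 1.35). Ldha (0.41) and Pkm (0.28) were also above 0 and Gapdh (-0.11) below, and the median of all genes in this gate was 0.12. Neutrophils were split by the granule genes Ngp, Camp and Ltf into granule-rich cells (78 aged and 46 aged-GA) and cells without these UMIs, called mature (567 and 332). In mature cells 1 of 7 members was higher past the fold (4.2% of genes were) and 0 lower (1.82%): Slc2a1, at 51.7 and 83.5 CPM, with a log2 ratio of 0.68 (0.17 to 1.22). In granule-rich cells 1 of 6 was higher (9.09%) and 0 lower (1.43%): Ldha, with a log2 ratio of 0.62 (0.29 to 0.95). Slc2a1 was under the minimum of UMIs in granule-rich cells (9 and 11 UMIs) and Hk2 in both subsets. Hk2 stood at 30.3 and 38.6 CPM in mature cells (37 and 30 UMIs) and at 29.8 and 81.7 CPM in granule-rich cells (16 and 26 UMIs). The summed level was 2692 and 2776 CPM in mature and 3336 and 4182 CPM in granule-rich cells. Calprotectin made up 220576 CPM of aged and 175172 CPM of aged-GA neutrophils, and its part in these ratios was not tested.

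Erythroid cells had no member above the minimum of UMIs in either comparison, so that 0 of 0 were counted. Of all genes counted there 21.6% were past the fold upward and 33.3% downward in aged over young, and 7.04% and 2.82% in aged-GA over aged. Cycling leukocytes, with UMIs of at least 3 of Mki67, Top2a, Birc5, Cdk1, Ccnb2 and Cdca8, had a summed level near that of myeloid cells, 2557, 2936 and 3037 CPM in 16, 52 and 46 cells. Markers of neutrophils summed to 0, 1290 and 1142 CPM and those of monocytes to 4.39, 425 and 305 CPM in these cells, and calprotectin to 8.77, 5757 and 6454 CPM, so that the aged and aged-GA gates held UMIs of myeloid cells. There 0 of 7 members passed the fold in aged-GA over aged (4.42% of genes upward, 6.19% downward).

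Some genes of the pathway lists had wider ratios than the members of the same class. Txnip, which restrains glucose uptake, had the lowest ratio of those counted in T and NK cells and monocytes in aged over young, and Myc in B cells (log2 ratio -1.25). Txnip stood at 1573 and 654 CPM in young and aged T cells (log2 ratio -1.27), 1532 and 815 CPM in B cells (-0.91), 1681 and 629 CPM in NK cells (-1.42) and 475 and 151 CPM in monocytes (-1.64). Pfkp, a phosphofructokinase, stood at 29.8 and 89.2 CPM in T cells (1.55). In NK cells Hk1 stood at 33.5 and 80.7 CPM, from 34 and 66 UMIs (1.24). In monocytes Eno3 was at 364, 181 and 274 CPM, with intervals of its log2 ratios of -1.34 to -0.67 and 0.40 to 0.79, and the mitochondrial pyruvate carrier gene Mpc1 had log2 ratios of 1.20 and -0.72. Neither gene was past the fold within nonclassical monocytes, where Eno3 stood at 407, 417 and 433 CPM and Mpc1 at 57.5, 58.7 and 58.5 CPM. Classical monocytes, absent from the young gate but for 1 cell, had 1.83 CPM of Eno3 and 290 CPM of Mpc1 in the aged library. Txnip stood at 513 and 190 CPM in young and aged nonclassical cells (-1.43). In erythroid cells Bpgm stood at 3121, 1273 and 1952 CPM, with log2 ratios of -1.29 and 0.62. In aged-GA over aged Txnip was at 654 and 830 CPM in T cells (0.34) and at 629 and 912 CPM in NK cells (0.53).

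The summed member level of all kept cells differed more between libraries than that of most classes. Over all kept cells it was 1180, 1521 and 1237 CPM in the young, aged and aged-GA library, log2 ratios of 0.37 and -0.30. Within the 5 leukocyte gates the log2 ratios ran from -0.23 in neutrophils (12 young cells) to 0.11 in T cells (-0.10 without haemoglobin, mitochondrial, ribosomal protein and immunoglobulin UMIs) for aged over young and from -0.045 in NK cells to 0.14 in neutrophils for aged-GA over aged. Over all kept cells, cells in no gate included, exchanging the shares alone gave log2 ratios of 0.14 and -0.21 and exchanging the levels alone 0.15 and -0.10. Pooled over the 5 gates the level was 1322, 1502 and 1379 CPM. With the young level in each gate and the aged share of UMIs it would be 1534 CPM, and with the aged level and the young share 1387 CPM. For aged-GA over aged the same exchange gave 1310 CPM with the shares changed and 1563 CPM with the levels changed, against 1502 CPM in aged mice. Cells of other gates and of no gate had 1089, 1648 and 1326 CPM, and 109 aged and 37 aged-GA cells among them passed a basophil, platelet or dendritic cell gate. Erythroid cells, with few member UMIs, held 8.33%, 2.89% and 9.12% of the UMIs of kept cells in the young, aged and aged-GA library. A mean over all cells, taken alone, does not tell other shares of cell types from other levels within them.

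**Figure D4:**
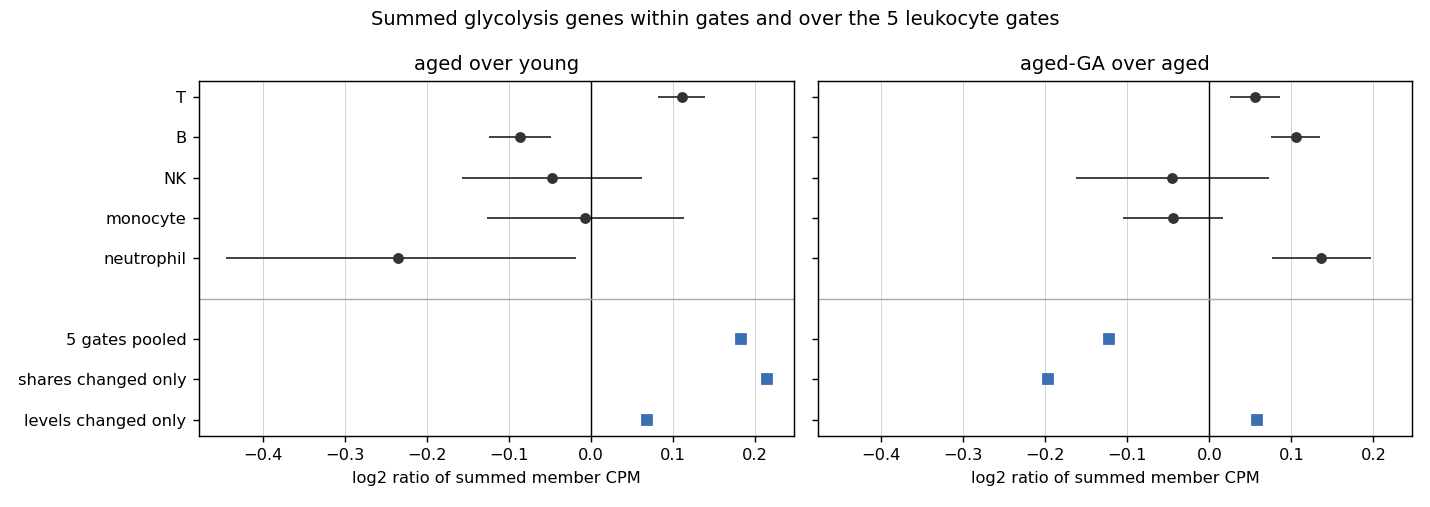
Log2 ratios of the summed member level within 5 gated classes with exact 95% intervals (points) and over these gates pooled, with only the UMI shares or only the levels exchanged (squares). The gates pooled are at 0.18 and -0.12, the shares alone at 0.21 and -0.20 and the levels alone at 0.069 and 0.058.

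The genes whose log2(CPM + 1) over the 17 class and library sums most resembled that of the summed members were Myl12b, Cd53, Atp6ap2, Cotl1 and Timm10b, with Pearson's r between 0.994 and 0.995. Over the 14 leukocyte sums they were Gsr, Svil, Sqor, Cotl1 and Slc22a15, with r between 0.972 and 0.983. The sums share libraries and depth. Over the 17 sums r also follows the gap between erythroid and leukocyte sums. For Ldha, r with the summed members was 0.981 over the 17 and 0.505 over the 14 leukocyte sums. For Gapdh it was 0.998 and 0.951. Members are not alike in how surely their reads can be placed. Windows of 50 bases were taken from the last 500 bases of their coding transcripts. Of these, 68.1% for Eno1 and 63.2% for Gapdh also occur in transcripts of other genes, Eno1b among them. Gpi1 had 27.4% and Pkm 19.3%, against 0% for Slc2a1 and Hk2 and 7.32% for Pgk1. Of the other genes, the count tables hold 1 of 8 for Eno1, 5 of 197 for Gapdh and 48 of 51 for Gpi1. The effect on the counts was not tested. Eno1b took at most 1.58% of the UMIs of Eno1 and Eno1b in a leukocyte class.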

How the data were processed

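Droplet-based RNA sequencing of single PBMCs gave 3 libraries. Per the file headers the authors mapped reads with Cell Ranger 5.0.0 and deposited UMI counts for each barcode; the submitters' processing notes name mm10, and the annotation is not given in the sources used here. The libraries held 58894294, 82260961 and 98155671 UMIs in 10842, 16038 and 17332 barcodes. The study's filters on cells were applied (200 genes or more, no more than 90% of the maximum gene number, mitochondrial UMIs at most 7.5%). Doublets were not called. The limit on markers of other classes removes only part of those of unlike classes, and the cycling gate had no such limit. A gated cell had at least 2 markers of its class, at most 1 of each other class and haemoglobin under 10% of UMIs, or, for erythroid cells, at 50% or more. CPM were computed over all UMIs of the gated cells. Counts tag the 3′ end once per molecule and were not divided by gene length. UMI sums of classes with at least 20 cells (17 sums) were tested with edgeR 4.0.16 in R 4.3.3 (TMM, filterByExpr, threshold 0.05). Groups of 1 library were not tested; intervals are exact 95% Poisson or binomial and cover counting error only. The edgeR test was tested on simulated data for monocytes and neutrophils over T, B and NK cells. It recovered 78% of genes changed by a log2 of 1 and 97% at 2 (10862 genes). All classes had the same gene profile and a fixed spread there, without a library effect, so the real sums may behave otherwise. Ratios in T cells were simulated with counting error alone, and of 200 changed genes (9021 eligible) 95.5% fell in their interval. That share checks the computation only. Members and lists were chosen with earlier results of these data known. All 10 members are named; of the 46 other pathway genes those set against a member by step or isoenzyme and those with the 3 widest ratios each way in a class could be named, and the others named from the myeloid contrast were chosen after their values were seen. A further T cell subset is not reported here. Alternatives were RLE factors, DESeq2 1.42.0, unscaled library sizes, other filters, gates and pseudocounts, and leaving out each library.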

Additional observations from a re-analysis of the deposited data

Results flagged for a closer look

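UMIs of glycolysis genes also occurred in barcodes with under 200 genes, which the main comparisons left out. An alternative between libraries without the minimum of genes took in those that passed the other filters and a gate. The members had 50 UMIs there in the young, 500 in the aged and 390 in the aged-GA library, in 971, 5466 and 3852 barcodes. The summed level was 6.57, 17.9 and 19.6 CPM, above the level that 3 UMIs would give (0.394, 0.108 and 0.151 CPM). Erythroid-gated cells had 7.22, 29.6 and 25.3 CPM, near it in the young library and higher in the aged and aged-GA library. Most of these barcodes, 941, 5460 and 3812, had haemoglobin at 50% of UMIs or more. Gapdh led with 20, 178 and 131 UMIs, and Hk2 had 0, 6 and 4.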

How the results depend on the processing

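No paired analysis was possible because each group has 1 library. With library sizes free of haemoglobin and no scaling factor, the neutrophil over monocyte difference of Pgk1 turned to -0.045 and that of Ldha to -0.042. Members were 3 higher and 2 lower there, where 11.9% of all genes tested were higher and 47.2% lower. In erythroid cells 8 members were lower, as were 50.2% of all genes tested. The all-gene median was then -0.63, -0.97, 0.11 and -1.71 in the myeloid, neutrophil, B cell and erythroid contrast, against -0.23, -0.20, -0.005 and -0.44 in the main fit. Members lower in neutrophils were 0 with DESeq2, where 23.1% of all genes tested were lower. They were also 0 with a strict gate (at least 3 own markers and 0 of another class), where 23% were. That gate gave 6 members lower in erythroid cells, where 15.6% of all genes tested were lower. Without the young library 7 members were higher and 1 lower in neutrophils, where 25.3% of all genes tested were higher and 33.8% lower. Without the aged or the aged-GA library fewer members passed there, with 1 neutrophil sum left. Leaving out a library gave 2 to 4 members lower in B cells (13.3% to 25.6% of all genes tested) and 1 to 2 lower in erythroid cells (2.17% to 3.73%). The summed log2 ratio of aged over young T cells turned to -0.10 without haemoglobin, mitochondrial, ribosomal protein and immunoglobulin UMIs, which put T cells at 0.12 in aged-GA over aged and B cells at -0.16 in aged over young. Without Gapdh it was 0.034 in T cells for aged over young and 0.17, 0.046 and 0.26 in B cells, monocytes and neutrophils for aged-GA over aged. The strict gate gave 0.10 in T and 0.11 in NK cells (aged-GA over aged) and -0.22 in monocytes (aged over young). The causes were not tested. Without the minima of UMIs and CPM, 1 member, Tpi1, was past the fold in T cells for aged over young. In NK and erythroid cells 2 and 7 were. For aged-GA over aged 1 was in NK and 4 were in erythroid cells. The erythroid ratios come from few counts, as all members together had 29, 46 and 175 UMIs in the young, aged and aged-GA library. For these and the other alternatives of the fold count no share over all genes was computed. Relative to the all-gene median, an alternative chosen after seeing the data, 1 was past it in NK cells for aged over young. At 2-fold monocytes and neutrophils had 0; the strict gate gave 1 and 1 in monocytes and 0 in neutrophils, and no limit on mitochondrial UMIs gave 1 in neutrophils. Unthinned, any member was seen in 98.0%, 95.5% and 97.9% of lymphoid, 100%, 98.1% and 98.8% of myeloid and 6.74%, 17.7% and 17.3% of erythroid cells of young, aged and aged-GA mice. The erythroid contrast was not run with at least 500 genes per cell, which leaves too few cells. Of 390 refits of single members and the second Aldoa row between cell types, 340 kept their call and direction. Depth limits Hk2, Slc2a1 and Tpi1 in NK and erythroid cells, and young monocytes and neutrophils.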
